A study of Mus musculus with 6 samples.

Results

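The 10 genes described here encode enzymes of serine synthesis and of the folate routes that use serine as a source of single carbons, and were chosen by symbol as members of these routes. They were Phgdh, Psat1 and Psph of serine synthesis, Shmt1 and Mthfd1 of the cytosolic folate route, Shmt2, Mthfd2, Mthfd1l and Aldh1l2 of the mitochondrial folate route, and Pck2, the mitochondrial phosphoenolpyruvate carboxykinase, which feeds the upstream end of serine synthesis from mitochondrial oxaloacetate. All 10 had a row among the 39017 genes of the table, and all 10 passed the filter on low counts that left 16569 genes for testing.

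Cells build the amino acid serine from a glycolytic intermediate in a short cytosolic route, and pass its side-chain carbon to folate, which carries single carbon units for the making of purines, thymidylate and methyl groups. Parallel sets of folate enzymes work in the cytosol and in the mitochondrion and exchange serine, glycine and formate. In brain the serine route is best known from astrocytes and other glia, and several of its genes and of the mitochondrial folate genes are known targets of ATF4, the transcription factor of the integrated stress response.

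RNA bound to tagged ribosomes was sequenced from corpus callosum of C57BL/6 mice. Cuprizone libraries (replicates 30, 31 and 32) came from mice fed 0.2% cuprizone, a copper chelator that kills oligodendrocytes, and control libraries (replicates 24, 26 and 27) from mice labelled Vehicle. Both groups carry the RiboTag allele, which puts an HA tag on the ribosomal protein RPL22 once Cre has acted, and Olig1-Cre, and an antibody to HA was used to isolate the tagged ribosomes with their RNA. Olig1 is made in progenitors that can also give rise to other neural cells, so the tag need not be limited to oligodendrocytes. The protocol names females aged 8 to 10 weeks, a feeding period of 6 or 9 weeks and 3 weeks of recovery on control diet, without saying which applied to the cuprizone libraries.

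Libraries held 19455245 to 22381307 counts on cuprizone and 18549360 to 18771737 in control. Every library held markers of oligodendrocytes and of further cell types, and the summed astrocyte markers exceeded the summed mature oligodendrocyte markers in all 3 cuprizone libraries and in no control library. The summed level of 12 mature oligodendrocyte markers was 8235, 15108 and 8080 CPM (counts relative to the scaled library total) on cuprizone and 83506, 61840 and 75382 CPM in control, and all 12 passed the test as lower. The summed level of 12 astrocyte markers was 28104, 33149 and 17241 CPM on cuprizone and 27858, 24808 and 25365 CPM in control, and no astrocyte, oligodendrocyte or microglial marker had 0 counts in a library. In such bulk captures, fewer cells of a type and less RNA per cell cannot be told apart. Cuprizone replicate 32 stood apart from its group. The chi-square statistic of its counts, divided by its degrees of freedom, was 85.1 with replicate 30 and 101 with replicate 31, while that pair gave 26.6. It had the lowest astrocyte sum of the 6 libraries and the highest sum of 12 microglia and macrophage markers, at 4238 CPM, beside 1860 and 2349 CPM in the other cuprizone libraries and 2393, 1342 and 1232 CPM in control replicates 24, 26 and 27. Its sums of neuronal markers and of endothelial and pericyte markers were also the highest, at 5856 and 142 CPM. No microglial marker passed with edgeR or limma-voom. Of the 12, 3 reached an unadjusted p below 0.05, against 23.3% of all genes tested, and 2 were higher by DESeq2, against 5.21%. The log2 fold change was positive for 10 of the 12, with a median of 0.71, for 8 of 9 tested endothelial and pericyte markers, with a median of 1.19, and for 9 of 10 neuronal markers, with a median of 0.31. The part of these cells in the higher levels of the members was not tested.

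Pck2 and 2 of the 4 mitochondrial folate genes, Mthfd2 and Mthfd1l, rose on cuprizone, by 2.03-fold, 1.82-fold and 1.74-fold. No gene of serine synthesis or of the cytosolic folate route passed the test, nor did Shmt2 and Aldh1l2 of the mitochondrial route, and no member fell. These 3 of 10 members compare with 1.87% of all 16569 genes called higher and 5.7% called lower, by edgeR's quasi-likelihood test with a Benjamini-Hochberg adjusted p under 0.05. The members were chosen with earlier results of these data known, so this comparison is not independent evidence. An unadjusted p below 0.05 was reached by 7 members and by 23.3% of all genes tested. DESeq2 called 4 members higher, against 5.21% of all genes, and limma-voom 2, against 1.77%. Neither called a member lower, against 8.46% of all genes for DESeq2 and 5.87% for limma-voom. All cuprizone libraries lay above all control libraries for 4 members, against 12.6% of all genes tested, and below them for 3 members, against 17.6% of all genes. The median log2 fold change of the 10 members was 0.22, and that of all genes tested was 0.02. With 1 library left out, the number of members that rose was 1 without control replicate 24 or 27 or cuprizone replicate 31, and 2 when any other library was left out.

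**Figure D1:**
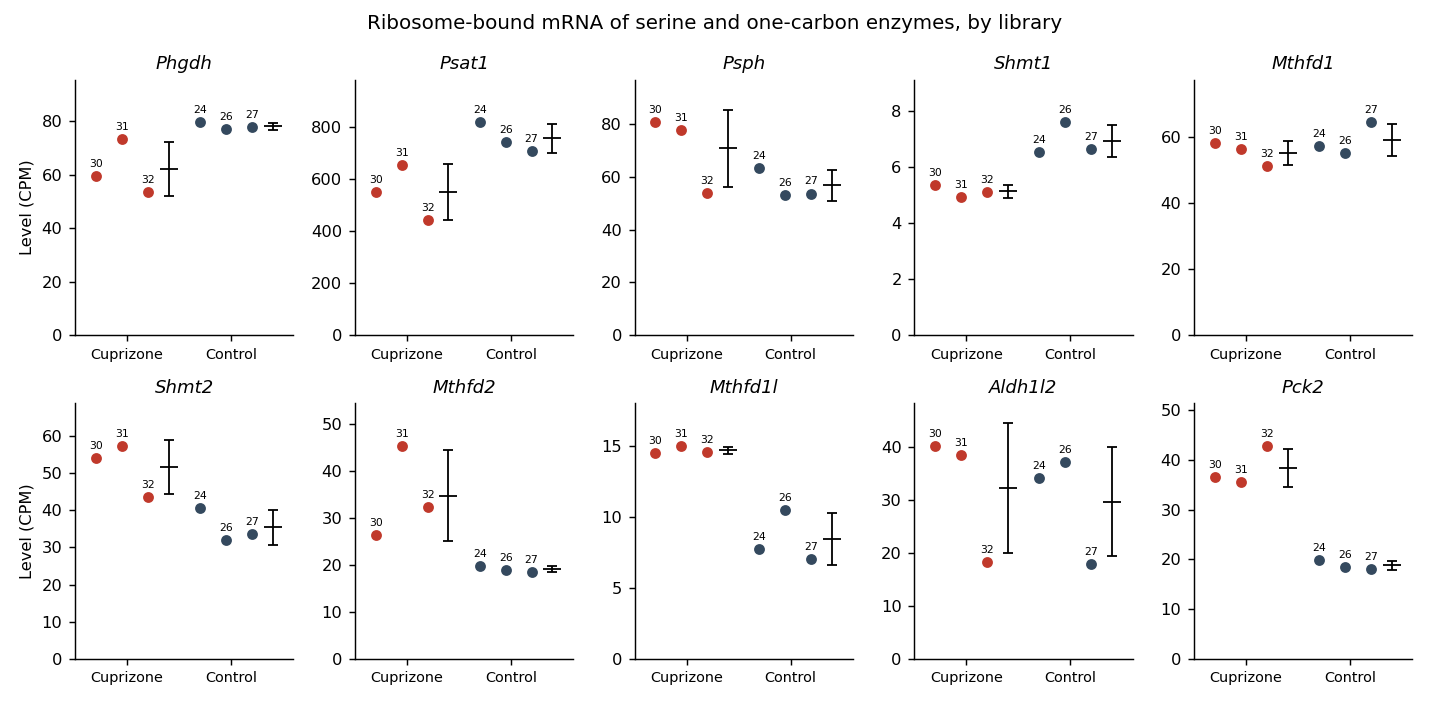
Level of each enzyme mRNA in CPM in every library, with cuprizone libraries in red on the left and control libraries in dark blue on the right of each panel, numbered by replicate; the bars give mean and SD (n = 3 each), and each panel has its own axis from 0. Pck2 sits at 35.6 to 42.8 CPM on cuprizone and 18.1 to 19.9 CPM in control, while Aldh1l2 splits within both groups.

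The regulatory sequence of the 3 genes that rose is shown because genes known to answer to ATF4 often carry a C/EBP-ATF response element near the start of transcription. RefSeq promoters in build GRCm38.p6, running from 250 bases before the start to 50 bases after it, were matched by symbol for 9 of the 10 members, all but Aldh1l2. The motif TGATGNAA, a core of that element, was searched on both strands, as was CACGTG, an E-box that reads the same on both strands and does not overlap it. Each promoter is given 5′ to 3′ on the strand of its gene, with a match to TGATGNAA in capitals.
Pck2, chr14:55540016-55540315, plus strand: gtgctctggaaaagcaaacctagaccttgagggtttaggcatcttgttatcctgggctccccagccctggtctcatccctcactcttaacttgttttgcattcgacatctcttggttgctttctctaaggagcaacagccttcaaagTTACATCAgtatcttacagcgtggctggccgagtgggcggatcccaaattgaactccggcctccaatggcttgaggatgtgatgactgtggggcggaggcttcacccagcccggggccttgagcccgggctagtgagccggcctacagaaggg
Mthfd2, chr6:83317555-83317854, minus strand: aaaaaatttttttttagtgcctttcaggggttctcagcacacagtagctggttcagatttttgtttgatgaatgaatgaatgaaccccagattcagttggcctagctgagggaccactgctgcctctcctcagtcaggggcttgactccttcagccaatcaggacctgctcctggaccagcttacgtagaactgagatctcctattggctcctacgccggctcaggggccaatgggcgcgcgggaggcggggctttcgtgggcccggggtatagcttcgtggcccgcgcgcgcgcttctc
Mthfd1l, chr10:3972825-3973124, plus strand: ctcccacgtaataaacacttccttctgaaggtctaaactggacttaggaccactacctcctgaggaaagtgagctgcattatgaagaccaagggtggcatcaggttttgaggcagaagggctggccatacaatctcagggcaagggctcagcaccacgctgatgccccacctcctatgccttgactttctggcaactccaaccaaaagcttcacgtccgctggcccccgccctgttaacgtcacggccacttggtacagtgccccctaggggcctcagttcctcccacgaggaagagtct
The match in Pck2 lies at positions -103 to -96 relative to the start (+1) and reads TGATGTAA on the opposite strand. Pck2 was the only one of the 9 members with such a match, which 3.97% of all 32851 promoters and 4.51% of the 27025 genes with a promoter also hold. CACGTG was found in 0 of the 9 members, and 7.15% of all promoters hold it. A match is a string of letters and was not tested as a binding site, and its absence from these windows says nothing of sites elsewhere in the gene.

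Pck2 (ENSMUSG00000040618, chr14:55540266-55551242 in GRCm38) had 36.6, 35.6 and 42.8 CPM in cuprizone replicates 30, 31 and 32 and 19.9, 18.5 and 18.1 CPM in control replicates 24, 26 and 27. The lowest cuprizone library stood well above the highest control, and the controls spanned less than 2 CPM. The means were 38.3 ± 3.88 CPM on cuprizone and 18.8 ± 0.914 CPM in control (SD, n = 3 each), a log2 fold change of 1.02 ± 0.12 (SE; edgeR adjusted p = 0.00362), or 2.03-fold. Pck2 was the member with the smallest adjusted p, and it passed in all 13 alternative fits, with an adjusted p of at most 0.0284. Its highest value was in cuprizone replicate 32, the library with the highest microglial, neuronal, and endothelial and pericyte sums. Without that library the log2 fold change was 0.94 (edgeR adjusted p = 0.00466). The cytosolic isoenzyme Pck1, which serves gluconeogenesis in liver and kidney, had 3 counts in cuprizone replicate 30 and 0 in the other 5 libraries and was not tested.

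Over the 6 libraries, the genes with profiles most like that of Pck2 were H2-Q4, a class I histocompatibility gene, Capn1, a calcium-dependent protease, Npl, which splits sialic acid, Plin2, a coat protein of lipid droplets, and Rcc2, a regulator of chromosome condensation. Their log2 CPM, each set relative to the control mean, differed from that of Pck2 by a root mean square of 0.09 for H2-Q4 and up to 0.11 for Rcc2. H2-Q4 belongs to a family of close paralogs, so its level is uncertain.

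Mthfd2 and Mthfd1l stand at successive steps of the mitochondrial folate route. Mthfd2 (ENSMUSG00000005667, chr6:83305691-83325908) encodes the dehydrogenase and cyclohydrolase that oxidises methylene-tetrahydrofolate, an enzyme best known from embryos, tumours and dividing cells. It had 26.3, 45.3 and 32.4 CPM in cuprizone replicates 30, 31 and 32 and 19.8, 19.0 and 18.5 CPM in control replicates 24, 26 and 27. The groups did not overlap, but the cuprizone libraries were spread widely (coefficient of variation 28.0%) and the controls closely (3.54%). The means were 34.7 ± 9.70 CPM on cuprizone and 19.1 ± 0.676 CPM in control (SD, n = 3 each), a log2 fold change of 0.86 ± 0.20 (SE; edgeR adjusted p = 0.0468). This call is close to the threshold. The adjusted p was 0.110, 0.138 and 0.167 without control replicate 24, 26 or 27, 0.0579 and 0.0596 without cuprizone replicate 31 or 32, and 0.0579 with limma-voom. Of 13 tested cell cycle genes 0 passed by edgeR, limma-voom or DESeq2. Among them 1 reached an unadjusted p below 0.05, against 23.3% of all genes tested. The summed level of the cell cycle list was 134, 132 and 131 CPM on cuprizone and 155, 118 and 156 CPM in control.

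Mthfd1l (ENSMUSG00000040675, chr10:3973118-4167081) encodes the mitochondrial enzyme that releases formate from formyl-tetrahydrofolate. It had 14.5, 14.97 and 14.5 CPM in cuprizone replicates 30, 31 and 32 and 7.72, 10.5 and 7.05 CPM in control replicates 24, 26 and 27. The cuprizone libraries were almost level with each other, and control replicate 26 lay nearest to them. The means were 14.7 ± 0.270 CPM on cuprizone and 8.42 ± 1.82 CPM in control (SD, n = 3 each), a log2 fold change of 0.80 ± 0.17 (SE; edgeR adjusted p = 0.0362). It passed with all 5 other scalings and filters, DESeq2 and limma-voom, and missed the threshold when 1 of 5 libraries was left out. The adjusted p was then 0.117 or 0.127 without control replicate 24 or 27, and 0.109, 0.0839 or 0.0572 without cuprizone replicate 30, 31 or 32.

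Shmt2, the mitochondrial serine hydroxymethyltransferase, which takes the carbon from serine (ENSMUSG00000025403, chr10:127517123-127522444), had 54.1, 57.3 and 43.5 CPM in cuprizone replicates 30, 31 and 32 and 40.7, 31.9 and 33.7 CPM in control replicates 24, 26 and 27. The groups did not overlap, although cuprizone replicate 32 and control replicate 24 came within 3 CPM of each other. The means were 51.6 ± 7.20 CPM on cuprizone and 35.4 ± 4.67 CPM in control (SD, n = 3 each). The log2 fold change of 0.54 ± 0.15 (SE) did not pass (edgeR adjusted p = 0.0812), and DESeq2 gave an adjusted p of 0.0235. Without cuprizone replicate 32 it was 0.65 with an adjusted p of 0.0306, and without any other single library the adjusted p was 0.0803 to 0.273.

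Aldh1l2, the mitochondrial formyl-tetrahydrofolate dehydrogenase, which burns the carbon unit to carbon dioxide (ENSMUSG00000020256, chr10:83487450-83534140), varied most among the members. It had 40.1, 38.4 and 18.2 CPM in cuprizone replicates 30, 31 and 32 and 34.0, 37.1 and 17.9 CPM in control replicates 24, 26 and 27. A single library of each group was low, cuprizone replicate 32 and control replicate 27, and the other 4 lay between 34.0 and 40.1 CPM. The log2 fold change was 0.12 ± 0.37 (SE; edgeR adjusted p = 0.879) with a 95% interval of -0.74 to 0.98, which is too wide to tell a fall of that size from a rise. Its exons share 1056 bases with D10Wsu102e on the opposite strand, which had a mean of 31.6 CPM on cuprizone and 34.8 CPM in control. No source used here states whether counting was by strand, so reads of the pair cannot be told apart.

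**Figure D2:**
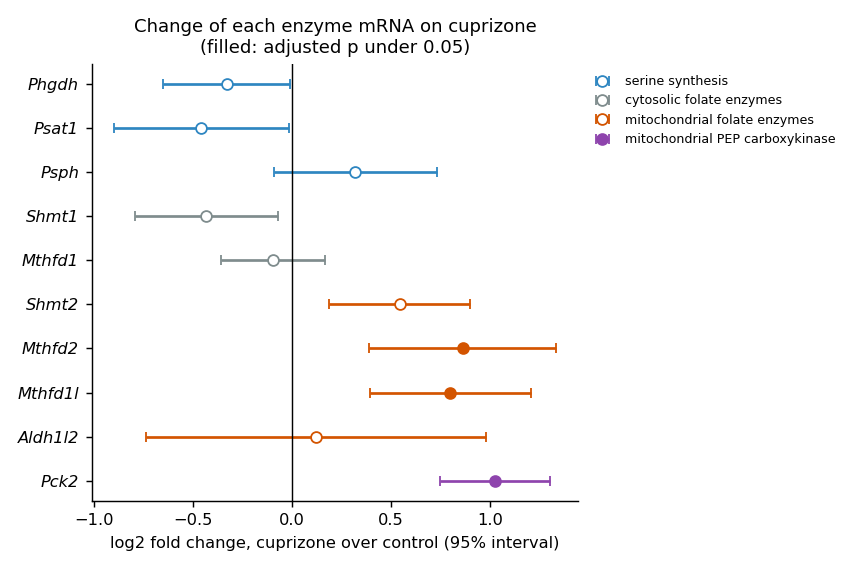
Log2 fold change of each enzyme mRNA, cuprizone over control, with its 95% interval from edgeR; colours mark the route and filled points have an adjusted p under 0.05. The filled points are Mthfd2, Mthfd1l and Pck2, at 0.86, 0.80 and 1.02, and the intervals of the serine synthesis and cytosolic folate enzymes are centred between -0.46 and 0.32.

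Of the 3 enzymes of serine synthesis itself, 0 passed by edgeR, limma-voom or DESeq2. An unadjusted p below 0.05 was reached by 2, Phgdh and Psat1, both with a lower mean on cuprizone. Of all genes tested, 23.3% reached that p, and 17.6% had all cuprizone libraries below all control libraries. Phgdh, which commits 3-phosphoglycerate to the route (ENSMUSG00000053398, chr3:98313170-98339990), had 59.3, 73.3 and 53.5 CPM in cuprizone replicates 30, 31 and 32 and 79.5, 76.8 and 77.9 CPM in control replicates 24, 26 and 27. All controls lay within 3 CPM of each other and above every cuprizone library. The log2 fold change was -0.33 ± 0.14 (SE; edgeR adjusted p = 0.201), with a 95% interval of -0.65 to -0.01.

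Psat1, the aminotransferase of the middle step (ENSMUSG00000024640, chr19:15904678-15947337), had 551, 657 and 444 CPM in cuprizone replicates 30, 31 and 32 and 819, 745 and 707 CPM in control replicates 24, 26 and 27. The groups did not overlap, and cuprizone replicate 31 came closest to the controls, as it did for Phgdh. The means were 551 ± 106 CPM on cuprizone and 757 ± 57.0 CPM in control (SD, n = 3 each), with a log2 fold change of -0.46 ± 0.19 (SE; edgeR adjusted p = 0.200) and a 95% interval of -0.90 to -0.02. Among the cuprizone libraries Phgdh and Psat1 had the same order, highest in replicate 31 and lowest in replicate 32. That order was shared by the sums of the astrocyte, mature oligodendrocyte and progenitor markers and of the one-carbon neighbours. It was also that of the lists of serine use and transport, purine synthesis, and ATF4 regulators and targets described below. The microglial, endothelial, neuronal, cell cycle and glycolytic sums had other orders. Of the 12 astrocyte markers 0 passed by limma-voom or edgeR. Among them 1 reached an unadjusted p below 0.05, against 23.3% of all genes tested, and 1 was lower by DESeq2, against 8.46%. The part of any of these cell types in the levels of Phgdh and Psat1 was not tested.

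Psph, the phosphatase that releases serine (ENSMUSG00000029446, chr5:129765558-129787449), had 80.8, 77.8 and 54.0 CPM in cuprizone replicates 30, 31 and 32 and 63.5, 53.2 and 53.8 CPM in control replicates 24, 26 and 27. Cuprizone replicates 30 and 31 were above all controls and replicate 32 lay among them. The log2 fold change was 0.32 ± 0.18 (SE; edgeR adjusted p = 0.323), and 0.48 with an adjusted p of 0.0511 without cuprizone replicate 32. Psph shares 452 exonic bases with Cct6a on the opposite strand, a chaperonin gene at a mean of 66.2 CPM on cuprizone and 74.4 CPM in control.

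Neither cytosolic folate enzyme passed by edgeR, limma-voom or DESeq2, while 1 reached an unadjusted p below 0.05, against 23.3% of all genes tested. That was Shmt1, the cytosolic counterpart of Shmt2 (ENSMUSG00000020534, chr11:60788104-60811718), with 5.37, 4.92 and 5.10 CPM in cuprizone replicates 30, 31 and 32 and 6.54, 7.59 and 6.64 CPM in control replicates 24, 26 and 27. Every cuprizone library was below every control, as held for 17.6% of all genes tested. These levels rest on 108 to 134 counts a library, and the log2 fold change was -0.43 ± 0.15 (SE; edgeR adjusted p = 0.148). Shmt1 shares 184 exonic bases with Smcr8 on the opposite strand, which had a mean of 48.3 CPM on cuprizone and 44.5 CPM in control, well above Shmt1 itself, and reads of that overlap cannot be told apart. Mthfd1 (ENSMUSG00000021048, chr12:76255298-76319803), a protein that joins 3 folate activities in the cytosol, had 58.0, 56.2 and 51.1 CPM in cuprizone replicates 30, 31 and 32 and 57.4, 55.1 and 64.4 CPM in control replicates 24, 26 and 27. The groups overlapped, the log2 fold change was -0.10 ± 0.11 (SE; edgeR adjusted p = 0.650), and the 95% interval of -0.36 to 0.17 lies below the fold changes of Mthfd2 and Mthfd1l.

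Ratios between an enzyme and its counterpart, taken within each library and so free of the scaling between libraries, put the mitochondrial and cytosolic arms side by side. The log2 ratio of Shmt2 to Shmt1 was 3.33, 3.54 and 3.09 in cuprizone replicates 30, 31 and 32 and 2.63, 2.07 and 2.34 in control replicates 24, 26 and 27. Every cuprizone library had more Shmt2 counts per Shmt1 count than every control. The difference of the means was 0.97 for Shmt2 over Shmt1, 0.92 for Mthfd2 over Mthfd1 and 0.91 for Mthfd1l over Mthfd1. Mthfd2 over Mthfd2l, a related mitochondrial enzyme found in adult tissue, differed by 0.92, with 2.90, 3.60 and 3.68 on cuprizone and 2.43, 2.60 and 2.39 in control. Each of these 4 ratios, and that of Psph to Phgdh (difference 0.64), did not overlap between the groups and had an exact 2-sided permutation p of 0.1, the smallest that 3 against 3 libraries allow (0.14 adjusted over the 7 ratios). Aldh1l2 over Aldh1l1, its cytosolic counterpart and a known astrocyte gene, differed by 0.01 (exact p = 1) with a control SD of 0.742. Psat1 over Phgdh differed by -0.13 (exact p = 0.2). The ratios are not independent, as several share Mthfd1, Mthfd2 or Phgdh. Of single genes, 12.6% lay higher and 17.6% lower in all cuprizone libraries, and the share among ratios of other gene pairs was not computed. A ratio in a bulk capture can also move with the mix of cells, whose part here was not tested.

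**Figure D3:**
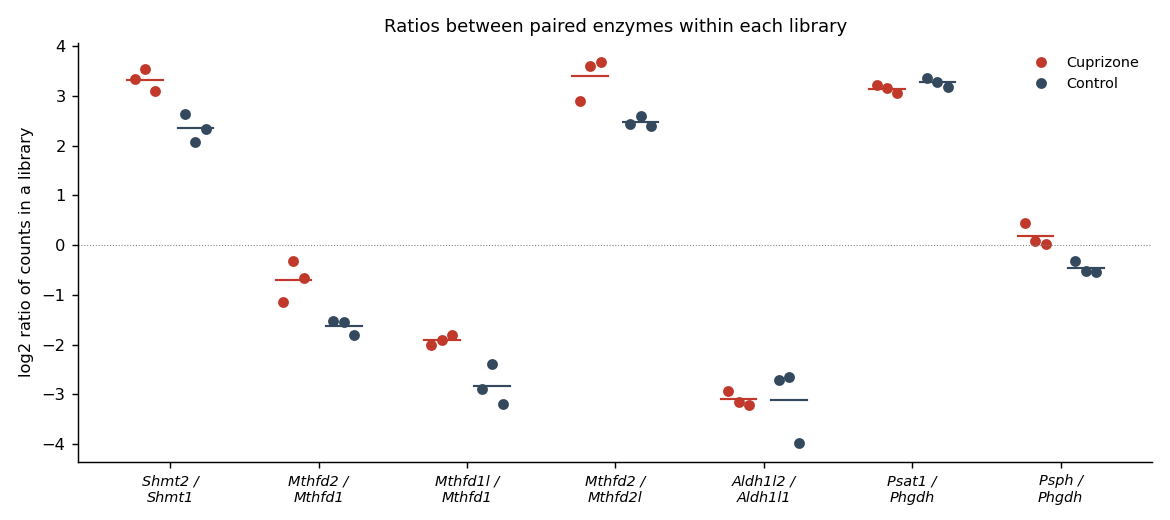
Log2 ratio of the counts of paired enzymes in each library, cuprizone in red on the left and control in dark blue on the right of each pair; points are libraries and bars are means (n = 3 each). The ratios of Shmt2 to Shmt1, Mthfd2 to Mthfd1, Mthfd1l to Mthfd1 and Mthfd2 to Mthfd2l lie higher in all cuprizone libraries, by 0.91 to 0.97 on average.

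Levels were compared between genes as CPM per kilobase of annotated exon. Psat1 was highest, at 129 ± 25.0 CPM per kb on cuprizone and 178 ± 13.4 CPM per kb in control (SD, n = 3 each), and it made up 60.2% of the summed CPM of the 10 members on cuprizone and 70.8% in control. Phgdh came next at 24.9 ± 4.11 and 31.4 ± 0.542 CPM per kb on cuprizone and in control. On cuprizone, Shmt2, Psph, Mthfd1 and Mthfd2 followed at 16.6, 16.4, 12.4 and 9.95 CPM per kb, with Shmt2 and Psph closer than their spread. In control Mthfd1, Psph and Shmt2 lay within their spread of each other at 13.3, 13.1 and 11.4 CPM per kb, and Mthfd2 followed at 5.47. The lowest were Pck2, Aldh1l2, Mthfd1l and Shmt1, at 4.91, 4.30, 3.30 and 1.32 CPM per kb on cuprizone and 2.41, 3.95, 1.90 and 1.78 CPM per kb in control. Mthfd1l and Shmt1 did not differ beyond their spread in control. With the length of the longest principal transcript in place of all annotated exons, Psph moved above Phgdh on cuprizone (40.9 and 32.8 CPM per kb) and above Mthfd1 in control (32.8 and 18.2 CPM per kb), and Shmt1 moved above Mthfd1l in control (2.42 and 2.28 CPM per kb).

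The level of Phgdh is uncertain. The annotation holds 19 other genes, named as predicted genes, clones or pseudogenes, that match its principal transcript over at least 250 bases at 90.4% to 98.7% identity. Only 6 of them have a row in the table, with 320 to 586 counts together in a library, against 1133 to 1715 counts for Phgdh. Gapdh, a glycolytic gene abundant in every cell and known for its many pseudogenes, had 5 to 12 counts a library. No source used here states how reads shared between copies were counted, and its part in the low level of Phgdh beside Psat1 was not tested. Psat1 has 1 such copy and the other members have none of this length outside the overlaps on the opposite strand given above.

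Of 27 tested genes of folate uptake, the glycine cleavage system, the methionine cycle and other one-carbon steps, 1 rose, Sfxn3, a relative of the mitochondrial serine carrier Sfxn1. Sfxn3 had 89.0, 84.5 and 93.0 CPM in cuprizone replicates 30, 31 and 32 and 54.6, 56.4 and 56.9 CPM in control replicates 24, 26 and 27 (log2 fold change 0.67 ± 0.10, SE; edgeR adjusted p = 0.00869, and 0.0583 without control replicate 27). By edgeR, limma-voom and DESeq2 0 fell, against 5.7%, 5.87% and 8.46% of all genes. By edgeR 1 rose, against 1.87% of all genes. An unadjusted p below 0.05 was reached by 5 of the 27, against 23.3% of all genes tested. The median log2 fold change was -0.03. Leaving out control replicate 27 gave 0 higher neighbours, and leaving out cuprizone replicate 32 gave 3.

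Among 16 tested genes of serine use and transport 1 rose and 2 fell, against 1.87% and 5.7% of all genes. An unadjusted p below 0.05 was reached by 7 of the 16, against 23.3% of all genes tested. The log2 fold change was negative for 12 of the 16, with a median of -0.13. Slc6a9, which encodes the glial glycine transporter GlyT1, had 119, 128 and 69.8 CPM in cuprizone replicates 30, 31 and 32 and 298, 299 and 250 CPM in control replicates 24, 26 and 27. It fell by 1.42 on the log2 scale (SE 0.24; edgeR adjusted p = 0.0145, and 0.0580 or 0.0637 without control replicate 24 or 26). Sptlc2, a subunit of serine palmitoyltransferase, which joins serine to a fatty acid in the opening step of sphingolipid synthesis, averaged 27.3 ± 0.769 CPM on cuprizone and 40.8 ± 3.87 CPM in control (SD, n = 3 each; log2 fold change -0.58, edgeR adjusted p = 0.0235). Slc1a5, a carrier of neutral amino acids including serine and glutamine, averaged 18.7 ± 5.77 CPM on cuprizone and 8.99 ± 0.985 CPM in control (SD, n = 3 each; log2 fold change 1.06, edgeR adjusted p = 0.0380). Both calls were lost with some libraries left out, at an adjusted p of up to 0.0948 for Sptlc2, without any library but cuprizone replicate 32, and up to 0.151 for Slc1a5, without any library but the same one, and Slc1a5 was at 0.0523 with limma-voom.

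Purine synthesis consumes formate made by the folate enzymes, and 0 of its 13 genes rose by edgeR, limma-voom or DESeq2, with 4 of the 13 at an unadjusted p below 0.05, against 23.3% of all genes tested. Adssl1, an adenylosuccinate synthase, was the only 1 of the 13 to fall by edgeR, against 5.7% of all genes. It had 33.6, 47.0 and 38.7 CPM in cuprizone replicates 30, 31 and 32 and 151, 155 and 117 CPM in control replicates 24, 26 and 27 (log2 fold change -1.82 ± 0.17, SE; edgeR adjusted p = 0.00205). Of 14 tested glycolytic genes, 0 passed by limma-voom or edgeR, and 2 reached an unadjusted p below 0.05, against 23.3% of all genes. DESeq2 called 2 higher, against 5.21% of all genes. The median log2 fold change of the 14 was 0.16.

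Of 18 tested regulators and targets of ATF4, 15 rose and 0 fell by edgeR, against 1.87% and 5.7% of all genes. The median log2 fold change of the 18 was 1.41, against 0.02 for all genes. All 18 reached an unadjusted p below 0.05, against 23.3% of all genes tested, and 17 of them had a positive log2 fold change. Vldlr was lower, at 57.4, 57.1 and 36.5 CPM in cuprizone replicates 30, 31 and 32 and 71.5, 118 and 86.0 CPM in control replicates 24, 26 and 27. DESeq2 called 16 higher and 1 lower, against 5.21% and 8.46% of all genes. With limma-voom 15 were higher and 0 lower, against 1.77% and 5.87%. Atf4 itself did not pass, with a log2 fold change of 0.41 (edgeR adjusted p = 0.114). This list was drawn up with the response of several of its genes in these libraries already known, so its direction is not independent evidence. The list had 8 genes higher without control replicate 27 and 9 without cuprizone replicate 30. By smallest adjusted p its leading genes were Atf5, Nupr1, Trib3, Gdf15, Slc7a5 and Asns, with log2 fold changes of 3.11, 2.85, 4.94, 4.87, 2.26 and 1.44. Asns, the asparagine synthetase, is the closest in kind to the serine enzymes. It had 72.7, 57.0 and 64.1 CPM in cuprizone replicates 30, 31 and 32 and 20.6, 29.3 and 21.6 CPM in control replicates 24, 26 and 27.

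**Figure D4:**
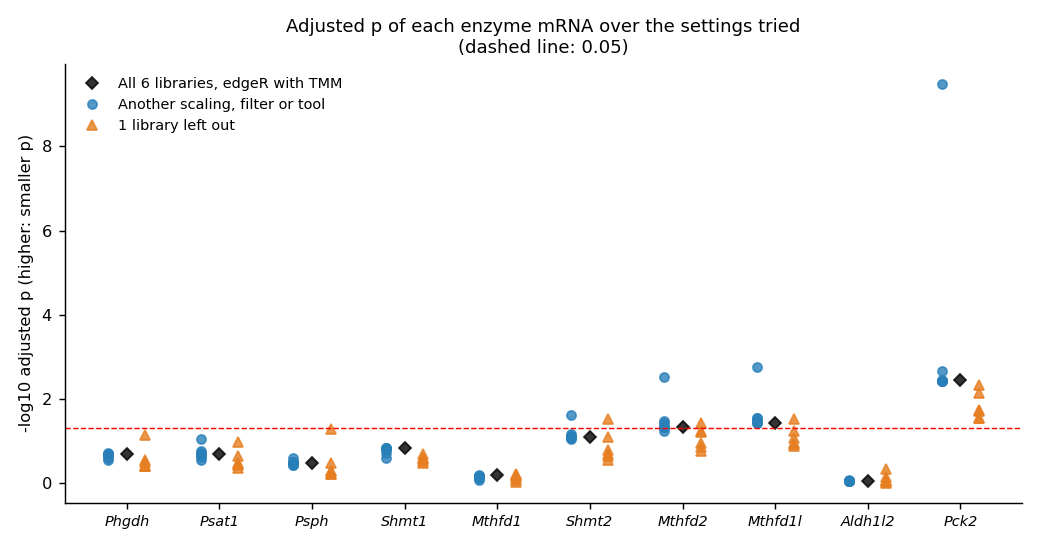
Adjusted p of each enzyme mRNA on a -log10 scale for all 6 libraries with edgeR and TMM scaling (diamonds), for other scalings, filters or tools (circles), and with 1 library left out (triangles); the dashed line marks 0.05. Pck2 stays above the line in all fits, with an adjusted p of at most 0.0284, while Mthfd2, Mthfd1l and Shmt2 lie on both sides of it.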

How the data were processed

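The deposited table holds raw counts of reads per Ensembl mouse gene, made by the authors for 6 libraries. Per the submitters' processing notes, bcl2fastq 2.17 and build mm10 were used. No source used here names the aligner, counter, annotation release or strand handling. Columns were matched to samples by title. Symbols, coordinates and exon lengths came from GENCODE M21 (GRCm38), in which 37607 of 39017 identifiers were found, the other 1410 staying in the tests.

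Counts were analysed with edgeR 4.0.16 in R 4.3.3: filterByExpr (minimum count 10, total 15), TMM scaling, robust glmQLFit and a 2-sided glmQLFTest, adjusted by Benjamini-Hochberg for 16569 genes. SE is the log2 fold change over the square root of F. CPM use TMM-scaled library sizes. Alternatives were other scalings and filters, DESeq2 1.42.0, limma-voom (limma 3.58.1) and each library left out. On simulated counts for this comparison and 16569 genes, 50 genes were changed at each size. Of these, 46% at a log2 change of 1, 26% at -1, 90% at 2 and 74% at -2 were recovered. Unchanged genes made up 6.35% of calls, and changes of the size seen here can be missed. Far fewer genes were changed than were called in the data (310 higher and 945 lower), so recovery can differ. No log2 change smaller than 1 in either direction was simulated. Replicates were not stated to be separate animals, so p-values measure the spread between libraries. Log2 ratios within a library were planned on scaled CPM and computed on counts plus 0.5, from which the scaling cancels. The ratio of Pck2 to Pck1 was planned and left out because Pck1 had almost no counts. Near copies were found by megablast against GENCODE transcripts.

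Members and lists were chosen with earlier results of these data known. All members were named, as were list genes past the threshold, up to 6 a list by adjusted p. Genes most like Pck2 were the 5 with the smallest root mean square difference among genes averaging 5 CPM or more without a predicted, Riken or pseudogene name; a limit to protein-coding genes was added to that rule in the code. Adss1 and Adss2 were found only under their older symbols. Among progenitor markers 2 of 10 were lower by edgeR, Sox10 and Olig1, against 5.7% of all genes. Of 9 tested endothelial and pericyte markers 0 passed by edgeR or limma-voom. Of the 9, 3 reached an unadjusted p below 0.05, against 23.3% of all genes tested, and 1 was higher by DESeq2, against 5.21%. Of 10 neuronal markers 0 passed by edgeR, limma-voom or DESeq2, with 0 at an unadjusted p below 0.05.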

Additional observations from a re-analysis of the deposited data

How the results depend on the processing

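Members kept their direction in the 13 alternative fits except Aldh1l2, whose log2 fold change ran from -0.15 to 0.40 with a library left out and was -0.15 without control replicate 27, -0.07 without cuprizone replicate 30 and -0.03 without cuprizone replicate 31. The number of members that rose was 1 or 2 with a library left out, and 2 to 4 with another scaling, filter or tool, and no member fell. With a library left out, the number that rose was 0 to 3 for the one-carbon neighbours, 0 or 1 for serine use and transport (0 to 2 fell), 0 or 1 for glycolysis and 8 to 15 for the ATF4 list. With limma-voom, 0 genes of serine use and transport rose. DESeq2 called 2 glycolytic genes higher, 2 purine genes lower and 1 gene of the ATF4 list lower, and upper-quartile scaling gave 1 glycolytic gene higher. The difference in the Aldh1l2 to Aldh1l1 ratio ran from -0.41 to 0.24 with a library left out, at -0.41 without control replicate 27 and -0.07 without cuprizone replicate 30; other scalings cancel in such ratios. The largest shift of the median of all genes by a scaling was 0.06 on the log2 scale. Of all genes, 65 to 464 were higher and 474 to 963 lower with a library left out, and DESeq2 called 862 higher and 1400 lower. The level per length under principal transcripts was chosen after seeing the data. No paired analysis was possible because the groups share no replicate number. Depth is lowest for Shmt1 among the members, with 108 to 134 counts a library, and for Mthfd2l among the genes of the ratios, with 53 to 87. Some tested genes of the lists had fewer, such as Dmgdh with 9 to 15.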
